A study of Homo sapiens with 6 samples.

Results

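The enzymes of glycolysis and the pentose phosphate pathway, with the regulators and side branches that feed them, were examined gene by gene and step by step in SW480 cells after ZEB1 knockdown. The set was chosen by name, with earlier results of these data known. Of the 38 genes listed, 37 had a row among the 32029 genes of the count tables. All 37 passed the filter on low counts that left 14996 genes for testing. FBP1 was not analysed here. SW480 is an established human colorectal adenocarcinoma cell line, and RNA was sequenced 48 h after transfection with a control siRNA (siNC, genotype given as WT, 3 samples) or an siRNA against ZEB1 (siZEB1, genotype given as ZEB1 knockdown, 3 samples). All 6 samples were of this 1 line. The labels do not say whether the samples of a group were separate cultures, although the methods of the study call them biological replicates, so the p-values measure the spread between these samples.

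Glycolysis splits glucose into pyruvate in the cytosol, with hexokinase, phosphofructokinase-1 and pyruvate kinase as its controlled steps, and lactate dehydrogenase reduces pyruvate to lactate. The pentose phosphate pathway takes glucose-6-phosphate aside to make NADPH and ribose phosphates. Many steps are served by several isozymes, encoded by separate genes that differ in regulation and tissue range, and many tumour cells run glycolysis to lactate even with oxygen present. ZEB1 is a zinc finger repressor of epithelial genes that binds E-boxes.

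The 6 libraries held between 19040636 and 22357633 counts, of which the 37 genes took between 1.64% and 1.87%. ZEB1 had 1247, 1276 and 908 reads with siNC and 136, 132 and 162 reads with siZEB1, lower in each siZEB1 sample than in any siNC sample. The summed level of 7 colon epithelial markers with a row lay between 4813 and 5437 CPM, the level unit used here (a gene's share of the TMM-scaled library) with siNC and between 5329 and 6002 CPM with siZEB1. KRT8 and KRT18, keratins that make up most of this sum, were not called (log2 fold changes of 0.03 and 0.04). Of the others tested, EPCAM (3.05), KRT19 (1.62) and VIL1 (2.34) were called higher and CDX2 (-1.30) lower by edgeR, each without overlap between the groups, so these 4 markers moved with the knockdown. The summed levels of 4 leukocyte markers stayed at 0.882 CPM or below, those of 2 endothelial markers at 2.72 CPM or below and those of 4 fibroblast markers at 15.2 CPM or below. CDX1, DCN, PTPRC, CDH5 and KDR, among the markers listed, had no row. The part of these markers in the results was not tested.

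Of the 19 glycolytic genes, 7 were lower with siZEB1 and none was higher: HK1, HK2 and HKDC1 of hexokinase, PFKP of phosphofructokinase-1, ENO2 of enolase, PKM of pyruvate kinase and LDHA of lactate dehydrogenase. The 7 are 36.8% of the 19, beside 21.2% of all tested genes called lower, while 19.0% of all tested genes were called higher. The fold change was below 0 for 14 of the 19, beside 7589 of the 14996 tested genes. The steps from triosephosphate isomerase to phosphoglycerate mutase held no called gene. PCK2, the mitochondrial enzyme that makes phosphoenolpyruvate from oxaloacetate, and RPIA, which interconverts ribulose and ribose phosphates, were each about 40% higher (39.9% and 39.7%). By edgeR's quasi-likelihood test with Benjamini-Hochberg adjustment over the 14996 genes, 5 of the 37 were higher and 12 were lower at an adjusted p under 0.05. These are 13.5% and 32.4% of the set, beside 19.0% of all tested genes called higher and 21.2% called lower. The median log2 fold change of the set was -0.13, and that of all tested genes was -0.0055. The groups did not overlap at 22 of the 37 genes, or 59.5%, beside 49.5% of all tested genes. By a rule that also asks for size, more than 1.5-fold at an unadjusted p under 0.05, which 16.6% of all tested genes met, none was higher and 2 were lower, HKDC1 and PDK2. At an unadjusted p under 0.05 with no limit on size, 22 of the 37 genes (59.5%) passed, beside 48.1% of all tested genes. Among the 19 glycolytic genes, PGK1 was the 1 gene higher at that unadjusted p, and it was called with median-of-ratios size factors (adjusted p = 0.0473) but not by DESeq2's Wald test (adjusted p = 0.0632), which called none of the 19 higher. In RNA from whole samples, a change in each cell and a change in how many cells carry the transcript cannot be told apart.

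Of the 17 calls, 10 were kept under each of 12 other fits: HK1, HK2, HKDC1, PFKP, LDHA, TIGAR, PDK2 and PGD among the lower genes, and PCK2 and RPIA among the higher ones. The count of higher genes fell from 5 to 3 without siNC replicate 1, siNC replicate 2, siZEB1 replicate 1 or siZEB1 replicate 2.

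**Figure D1:**
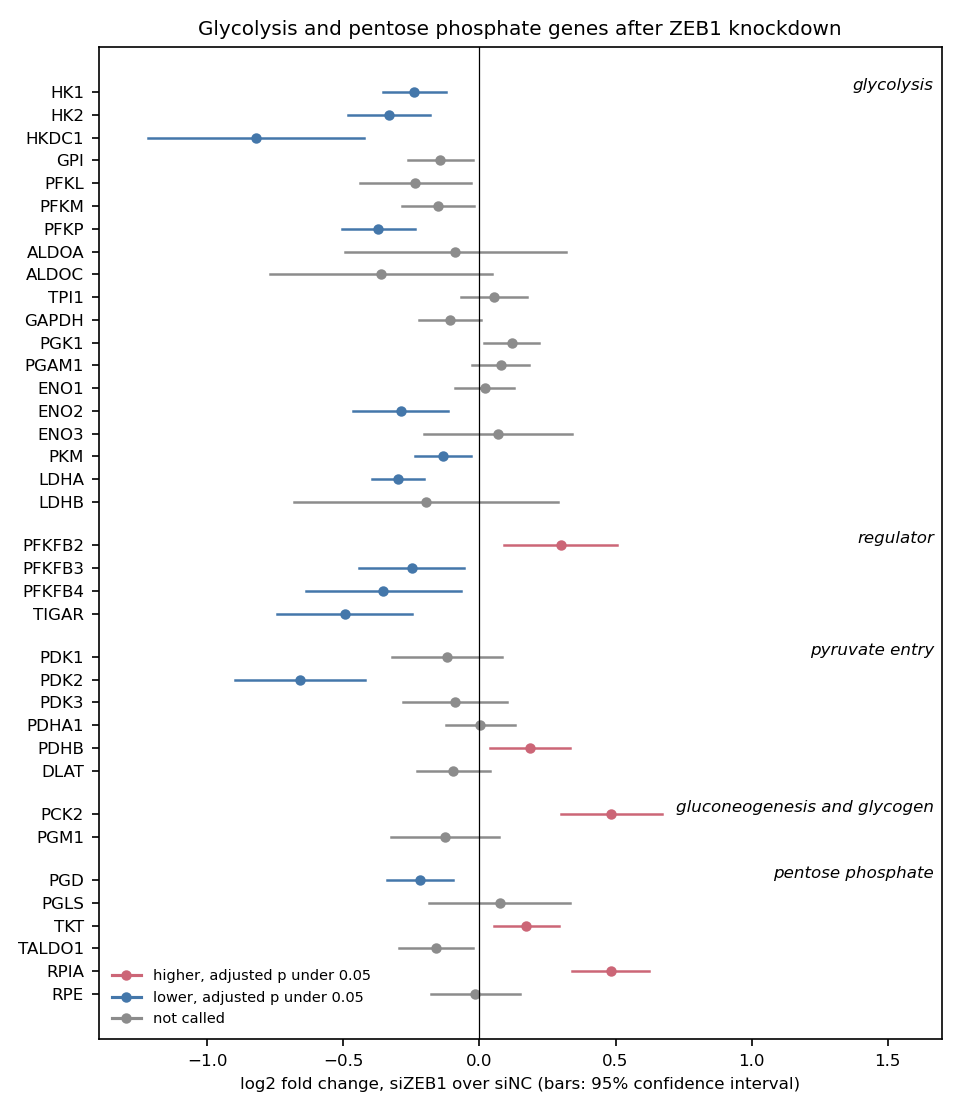
Log2 fold change of siZEB1 over siNC for the 37 genes, grouped by role, with 95% confidence intervals from edgeR's quasi-likelihood fit as bars. Red marks genes called higher, blue genes called lower and grey those not called. The intervals of 12 genes in blue lie left of 0 and those of 5 genes in red right of it, and the widest belong to genes with few reads such as HKDC1 and LDHB. The intervals are not adjusted for the number of genes, and those of GPI, PFKL, PFKM, PGK1 and TALDO1, in grey, also leave out 0.

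Short sequences in 4 of the genes are shown so that their letters can be set beside the values that follow. ZEB1 is known to bind the E-box CACCTG, which was searched on both strands (CACCTG or CAGGTG) in the RefSeq windows from 250 bases before to 50 bases after the start of each gene (GRCh38.p14). PDK2 and TIGAR are shown because they are the genes called lower whose window holds it, with the E-box in capitals. PDK2 at chr17:50094564-50094593, plus strand, has it 161 bases before the start. TIGAR at chr12:4320999-4321028, plus strand, has it 202 bases before the RefSeq start. By the GENCODE 29 extent of TIGAR, from 4307763 to 4354593, that stretch lies inside the gene.
PDK2 promoter: aggtggctttctCAGGTGgtcgcgctagat
TIGAR promoter: cggggcctcccgCACCTGccgcgcgccaat
LDHA, which was lower, and PGK1, which was not called, are shown because theirs are the 2 3′UTRs in the set that hold the 7-mer GAACACA, in capitals below. The 7-mer was taken from an earlier look at these same data, so its presence is a description. LDHA lies at chr11:18408141-18408170 and PGK1 at chrX:78127135-78127164, both on the plus strand of GRCh38 with GENCODE 29 transcripts.
LDHA 3′UTR: gtcactataggGAACACAgatttttgagat
PGK1 3′UTR: tactttttgtaGAACACAagactctactag

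The E-box stood in the windows of 7 of the 36 genes with one in RefSeq, or 19.4%, beside 18.6% of 10428 tested genes with a window. PFKFB2 had none listed. The 7 were GPI, ALDOA, TIGAR, PDK2, PDHA1, TALDO1 and RPE, of which only TIGAR and PDK2 were called, both lower. The core of the hypoxia response element, ACGTG or GCGTG on either strand, stood in 23 of the 36 windows (63.9%) beside 63.2% of all. These shares lie close to the background. GAACACA stood in the 3′UTRs of 2 of 37 genes (5.41%) beside 11.2% of 12238 tested genes, and the 7-mer CGGAGAA, from the same earlier look, in none beside 2.16%. HIF1A, which encodes the oxygen-regulated subunit of the factor that binds that element, was at 275 ± 20.5 CPM with siNC and 289 ± 20.6 CPM with siZEB1 (SD, n = 3 each), and its log2 fold change of 0.071 had a 95% interval from -0.070 to 0.21 (adjusted p = 0.427 by edgeR).

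Hexokinase traps glucose in the cell as glucose-6-phosphate. HK1 (ENSG00000156515, chromosome 10 from 69269984 to 69401884 on GRCh38), the widely expressed form, was at 289, 296 and 297 CPM with siNC and at 255, 252 and 239 CPM with siZEB1. Every siZEB1 sample lay below every siNC sample, and the log2 fold change was -0.24 (SE 0.055, adjusted p = 0.0020 by edgeR). HK2 (ENSG00000159399, chromosome 2 from 74833981 to 74893359), the form found at high levels in many tumours, was at 124, 122 and 104 CPM with siNC and at 93.9, 90.5 and 94.3 CPM with siZEB1. The groups did not overlap, and the fold change was -0.33 (SE 0.072, adjusted p = 0.0013 by edgeR). HKDC1 (ENSG00000156510, chromosome 10 from 69220303 to 69267559), a hexokinase-like gene next to HK1, had 93, 74 and 85 reads with siNC and 40, 49 and 41 reads with siZEB1. Its level fell by 0.82 on the log2 scale (SE 0.19, adjusted p = 0.0021 by edgeR), the largest fall of the 37 genes, from a level of only 4.03 ± 0.628 CPM (SD, n = 3).

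GPI, which turns glucose-6-phosphate into fructose-6-phosphate, was at 725, 759 and 820 CPM with siNC and at 711, 712 and 663 CPM with siZEB1. The groups did not overlap, but the log2 fold change of -0.14 did not pass (adjusted p = 0.0519 by edgeR). Over the 12 other fits its adjusted p ranged from 0.0232, without siNC replicate 1, to 0.169, without siNC replicate 3, and 3 of them called it.

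Phosphofructokinase-1, the committed step of glycolysis, is built from the platelet (PFKP), muscle (PFKM) and liver (PFKL) subunits. PFKP (ENSG00000067057, chromosome 10 from 3066333 to 3137712) was at 121, 129 and 133 CPM with siNC and at 101, 98.5 and 96.0 CPM with siZEB1. Its 3 siZEB1 samples lay well below the siNC samples, and the log2 fold change was -0.37 (SE 0.063, adjusted p = 0.00016 by edgeR). PFKM was at 94.3 ± 2.29 CPM with siNC and 84.8 CPM with siZEB1, or -0.15 on the log2 scale (adjusted p = 0.0619), and PFKL was at 32.1 ± 4.85 CPM and 27.2 CPM, or -0.24 (adjusted p = 0.0620). Neither passed the test, although the groups overlapped in neither. The log2 fold change of PFKL depended on single samples, at -0.32 without siNC replicate 1 (adjusted p = 0.0145) and -0.11 without siNC replicate 3 (adjusted p = 0.310).

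Aldolase splits fructose-1,6-bisphosphate into 2 triose phosphates. ALDOC was at 3.10 ± 0.298 CPM with siNC and 2.41 CPM with siZEB1, and ALDOA at 2.73 ± 0.121 CPM and 2.57 CPM, with overlapping groups and no call. ALDOA had only 319 reads over the 6 samples. Of its principal transcript of 1603 bases, 1324 bases (82.6%) lie within exons of AC093512.2, a same-strand gene with 218 reads. Reads that the counting left out as shared and a low level of the gene cannot be told apart, so the levels and the share of ALDOA are uncertain.

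The triose steps in the middle of the pathway were among the most abundant members. TPI1, triosephosphate isomerase, was at 1105, 1149 and 1212 CPM with siNC and at 1225, 1263 and 1109 CPM with siZEB1, with overlapping groups and a log2 fold change of 0.05 (95% interval from -0.07 to 0.17). GAPDH, which oxidises glyceraldehyde-3-phosphate, was at 3335 ± 206 CPM with siNC and 3092 CPM with siZEB1, with a log2 fold change of -0.11 and an interval from -0.22 to 0.0037. PGK1, which makes the first ATP of the payoff phase, was at 956, 956 and 937 CPM with siNC and at 1036, 1059 and 997 CPM with siZEB1. Every siZEB1 sample of PGK1 was higher, but the log2 fold change of 0.12 did not pass (adjusted p = 0.0607 by edgeR). Over the 12 other fits its adjusted p ranged from 0.0337, without siZEB1 replicate 3, to 0.216, without siZEB1 replicate 2, and 2 of them called it. PGAM1, phosphoglycerate mutase, had a log2 fold change of 0.08 (95% interval from -0.03 to 0.18). Reads on 14 pseudogenes of GAPDH came to 0.221% of its own reads, and those on 2 pseudogenes of TPI1 to 1.99%.

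Enolase makes phosphoenolpyruvate. ENO1, its main form here, was at 2820 ± 89.6 CPM with siNC and 2857 CPM with siZEB1, with a log2 fold change of 0.02 (95% interval from -0.09 to 0.13). ENO2, the form known from neurons, was at 47.3, 49.8 and 56.7 CPM with siNC and at 39.7, 45.5 and 40.6 CPM with siZEB1. The groups did not overlap, and the log2 fold change of -0.29 passed (SE 0.083, adjusted p = 0.0099 by edgeR), but not without siZEB1 replicate 1 (adjusted p = 0.0641). ENO3, the muscle form, was at 12.7 ± 2.74 CPM and 13.3 CPM, with overlapping groups.

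PKM, the pyruvate kinase gene whose M1 and M2 forms the counts per gene do not separate, was at 3447, 3501 and 3751 CPM with siNC and at 3332, 3327 and 3090 CPM with siZEB1. The log2 fold change of -0.13 (SE 0.049) had an adjusted p of 0.0381 by edgeR, and the call was lost in 8 of the 12 other fits, among them DESeq2's Wald test (adjusted p = 0.0961) and each fit that left out a sample other than siNC replicate 1.

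LDHA (ENSG00000134333, chromosome 11 from 18394388 to 18408425), the subunit of lactate dehydrogenase known for turning pyruvate into lactate, was at 1982, 1989 and 1982 CPM with siNC and at 1613, 1657 and 1567 CPM with siZEB1. The siNC samples lay very close together and the siZEB1 samples far below them. The log2 fold change was -0.30 (SE 0.046, adjusted p = 5.66e-05 by edgeR), a change of -18.7%. LDHB, the heart subunit, had 235 reads over the 6 samples and a log2 fold change of -0.20 with an interval from -0.68 to 0.29. Of its principal transcript of 1538 bases, 993 (64.6%) are shared with AC010197.2 on the same strand, which had 1 read, so that a low level of LDHB and reads left out as shared cannot be told apart.

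**Figure D2:**
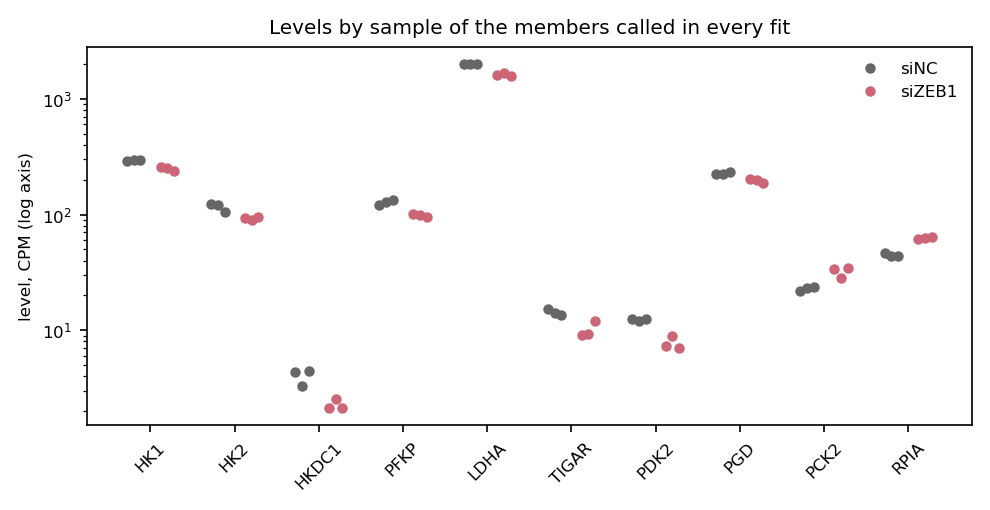
Level in each sample, in CPM on a log axis, of the 10 genes whose call was kept in each of the 12 other fits, with 3 siNC samples in grey and 3 siZEB1 samples in red for each gene. The groups do not overlap for any of the 10, which follows largely from choosing genes by their calls in these same counts. Among all tested genes, 49.5% do not overlap. The siZEB1 samples lie lower for the first 8 genes and higher for PCK2 and RPIA. The counts of TIGAR and PDK2 are uncertain because other genes overlap them.

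The allosteric regulator fructose-2,6-bisphosphate, which activates phosphofructokinase-1, is made and removed by the PFKFB enzymes, and TIGAR removes it. All 4 genes passed the test, 1 higher (25%, beside 19.0% of all tested genes) and 3 lower (75%, beside 21.2%). PFKFB2 was at 27.6, 26.5 and 22.4 CPM with siNC and at 28.4, 30.3 and 35.5 CPM with siZEB1. Its log2 fold change of 0.30 (SE 0.099, adjusted p = 0.0229 by edgeR) did not pass without siNC replicate 3 (adjusted p = 0.0668) or without siZEB1 replicate 3 (adjusted p = 0.123). With the replicate number as a block it did not pass either (adjusted p = 0.0530).

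PFKFB3, the form with the highest kinase activity relative to its phosphatase activity, was at 21.2, 22.5 and 21.7 CPM with siNC and at 20.4, 17.9 and 16.7 CPM with siZEB1. Its log2 fold change of -0.25 (adjusted p = 0.0387 by edgeR) was lost in 6 of the 12 other fits, among them those without siNC replicate 2, siZEB1 replicate 2 or siZEB1 replicate 3 (adjusted p = 0.124, 0.112 and 0.157). PFKFB4 was at 9.69, 11.3 and 8.51 CPM with siNC and at 6.62, 7.64 and 8.88 CPM with siZEB1, so the groups overlapped. Its log2 fold change of -0.35 (adjusted p = 0.0469) was lost in 8 of the 12, among them those without siNC replicate 1, siNC replicate 2, siZEB1 replicate 1 or siZEB1 replicate 2 (adjusted p between 0.0673 and 0.233).

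TIGAR (ENSG00000078237, chromosome 12 from 4307763 to 4354593) had 322, 318 and 263 reads with siNC and 173, 177 and 232 reads with siZEB1. Its levels were 15.1, 14.2 and 13.6 CPM with siNC and 9.16, 9.21 and 12.1 CPM with siZEB1. The third siZEB1 sample lay nearest to the controls, and the log2 fold change was -0.50 (SE 0.12, adjusted p = 0.0026 by edgeR). On the same strand, 61.5% of its principal transcript is shared with AC008012.1, for which the count tables gave no row, so its level is uncertain.

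Pyruvate enters the mitochondrial pyruvate dehydrogenase complex, which the PDK kinases switch off by phosphorylation. PDK2 (ENSG00000005882, chromosome 17 from 50094737 to 50112152) had 264, 268 and 239 reads with siNC and 139, 170 and 135 reads with siZEB1, or 12.4, 11.97 and 12.4 CPM against 7.36, 8.84 and 7.05 CPM. The groups lay far apart, and the log2 fold change was -0.66 (SE 0.11, adjusted p = 0.00017 by edgeR). SAMD14, on the opposite strand, overlaps 61.4% of the principal transcript of PDK2 and had 27 reads over the 6 samples. The use of strand in counting is not given, so reads left out as shared cannot be told apart from a low level. The level and share of PDK2 are therefore uncertain. PDK1 and PDK3 had log2 fold changes of -0.12 (95% interval from -0.32 to 0.08) and -0.09 (from -0.28 to 0.10), with overlapping groups.

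Of the complex itself, PDHB, the beta subunit of its first enzyme, was at 57.3, 55.8 and 62.7 CPM with siNC and at 66.4, 68.2 and 65.2 CPM with siZEB1. Its log2 fold change of 0.19 (adjusted p = 0.0404 by edgeR) was lost in 6 of the 12 other fits, among them those without siNC replicate 1, siNC replicate 2, siZEB1 replicate 1 or siZEB1 replicate 2 (adjusted p between 0.104 and 0.183). PDHA1, the alpha subunit, had a log2 fold change of 0.0036 (95% interval from -0.12 to 0.13), and DLAT, the acetyltransferase core, one of -0.10 (from -0.23 to 0.04).

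PCK2 (ENSG00000100889, chromosome 14 from 24094053 to 24110598) was at 22.01, 23.0 and 23.9 CPM with siNC and at 33.6, 28.3 and 34.5 CPM with siZEB1. Each siZEB1 sample lay above each siNC sample, and the log2 fold change of 0.48 (SE 0.088, adjusted p = 0.00031 by edgeR) was, with that of RPIA, the largest rise of the set. PGM1, which links glucose-6-phosphate to glycogen, was at 18.7 ± 1.88 CPM with siNC and 17.1 CPM with siZEB1, with overlapping groups and no call.

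In the pentose phosphate pathway 2 of 6 genes were higher (33.3%, beside 19.0% of all tested genes) and 1 was lower (16.7%, beside 21.2%). PGD (ENSG00000142657, chromosome 1 from 10398592 to 10420144), the oxidative enzyme that makes NADPH and ribulose-5-phosphate, was at 225, 224 and 235 CPM with siNC and at 201, 199.96 and 187 CPM with siZEB1. The groups did not overlap, and the log2 fold change was -0.22 (SE 0.058, adjusted p = 0.0057 by edgeR). PGLS, the lactonase just before it, had 0.07 with an interval from -0.18 to 0.33.

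RPIA (ENSG00000153574, chromosome 2 from 88691644 to 88750935), of the non-oxidative branch, was at 46.9, 44.2 and 43.9 CPM with siNC and at 61.6, 63.0 and 64.0 CPM with siZEB1. The samples of each group lay close together and the groups far apart, and the log2 fold change was 0.48 (SE 0.067, adjusted p = 2.35e-05 by edgeR). TKT, transketolase, was at 703, 725 and 771 CPM with siNC and at 858, 848 and 771 CPM with siZEB1. The highest siNC and the lowest siZEB1 sample of TKT nearly met, both at 771 CPM, and its log2 fold change of 0.17 (adjusted p = 0.0216 by edgeR) was lost in 5 of the 12 other fits, among them those without siNC replicate 1, siNC replicate 2, siZEB1 replicate 1 or siZEB1 replicate 2 (adjusted p between 0.0813 and 0.123).

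TALDO1, transaldolase, was at 216, 225 and 246 CPM with siNC and at 215, 209 and 192 CPM with siZEB1. Its log2 fold change of -0.16 did not pass (adjusted p = 0.0607 by edgeR). Over the 12 other fits its adjusted p ranged from 0.0322, without siNC replicate 1, to 0.215, without siZEB1 replicate 3, and 2 of them called it. RPE, the epimerase beside RPIA, was at 109 ± 11.8 CPM with siNC and 108 CPM with siZEB1. The difference between RPE and RPIA, which both act on ribulose-5-phosphate, was not tested.

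To compare steps, the CPM of each gene was divided by the length of its annotated exons in kilobases and summed over the isozymes of a step. On this scale the hexokinase step was at 67.4, 67.8 and 65.3 with siNC and at 56.5, 55.6 and 54.0 with siZEB1, a change of -17.2%. Phosphofructokinase-1 was at 41.3, 42.6 and 44.7 with siNC and at 35.1, 35.2 and 34.8 with siZEB1, a change of -18.3%. Lactate dehydrogenase went from 320 ± 0.724 to 260 ± 7.21 (SD, n = 3 each), a change of -18.7%. As counted, nearly all of this total is LDHA. The count of LDHB is uncertain, so the change shown is that of LDHA and may not be that of the step. In all 3 steps every siZEB1 sample lay below every siNC sample.

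The means of the other glycolytic steps differed in both directions, but edgeR called none of their genes higher. Aldolase, with few reads, changed by -15.8%, phosphoglucose isomerase by -9.48% and pyruvate kinase by -8.88%, each without overlap, and GAPDH by -7.30% with overlap. Phosphoglycerate kinase changed by 8.53%, phosphoglycerate mutase by 5.53%, both without overlap, and triosephosphate isomerase by 3.77% and enolase by 0.893%, both with overlap. Of the 22 step totals tested, 15 did not overlap between the groups, where 49.5% of all tested genes, taken singly, did not overlap. An exact permutation test of 3 samples against 3, two-sided, cannot go below 0.1, which adjusted over the 22 totals gives 0.147, so none could pass. Single-gene steps repeat the values of their gene.

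**Figure D3:**
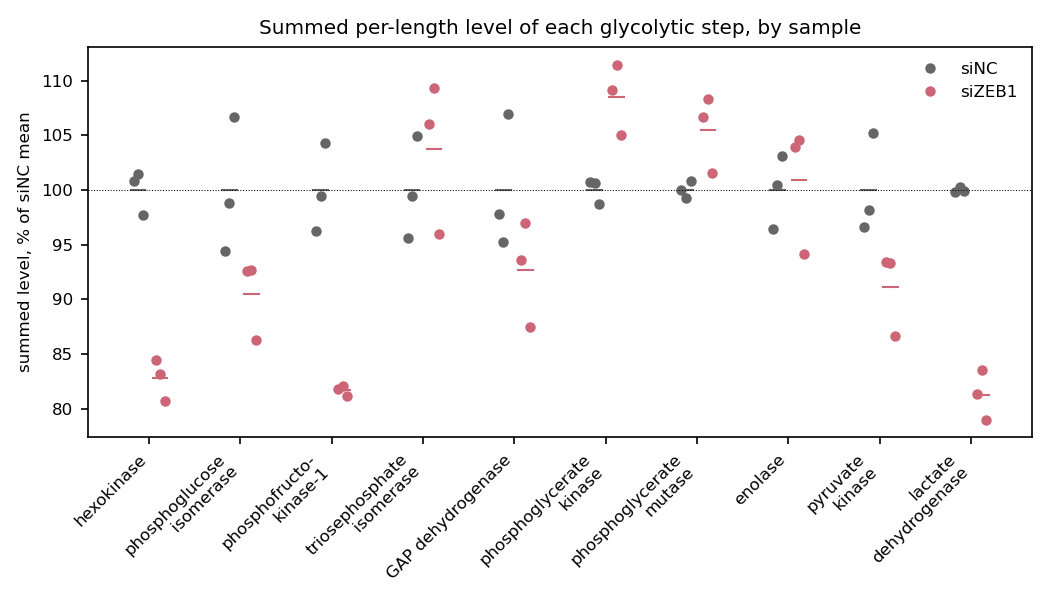
Summed level of each glycolytic step in each sample, CPM per kilobase of exon as a percentage of the siNC mean, in pathway order, with siNC in grey, siZEB1 in red and short lines at the group means. Aldolase is left out because its reads are few. Lactate dehydrogenase as counted is nearly all LDHA, and the count of LDHB is uncertain. The siZEB1 samples of hexokinase, phosphofructokinase-1 and lactate dehydrogenase lie lowest, with changes of the mean of -17.2%, -18.3% and -18.7%, while phosphoglycerate kinase and mutase lie above the siNC mean.

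On the same per-length scale the order of the isozymes by mean was alike in both groups for each step except the PFKFB enzymes. HK1 made up 69.8% ± 2.09 of hexokinase with siNC and 71.3% ± 0.966 with siZEB1 (SD, n = 3 each), and HK2 28.8% ± 2.18 and 27.7% ± 1.02, both with overlapping groups. HKDC1 had 1.42% ± 0.239 and 0.963% ± 0.101 without overlap. PFKP had 60.4%, 62.6% and 61.6% of phosphofructokinase-1 with siNC and 59.5%, 57.9% and 57.1% with siZEB1, and PFKM went from 30.1% ± 1.56 to 33.1% ± 1.04. ENO1 held 97.3% ± 0.239 of enolase with siNC and 97.7% ± 0.105 with siZEB1.

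The regulatory enzymes shifted the most in share. PFKFB2 made up 34.9%, 32.0% and 30.8% of the PFKFB level with siNC and 38.6%, 41.5% and 45.4% with siZEB1, a difference of 9.31 points. PFKFB3 led with siNC at 46.6% ± 2.78 and stood at 41.0% ± 5.33 with siZEB1, beside PFKFB2 at 41.8% ± 3.39, and PFKFB4 went from 20.9% to 17.2%. The summed PFKFB level overlapped between the groups and changed by -4.33%. PDK2 went from 30.04%, 27.8% and 31.1% of the PDK level to 21.7%, 25.3% and 19.4%, while PDK3 went from 55.7% ± 2.43 to 62.0% ± 2.15. The PDK shares rest on the uncertain count of PDK2.

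Of the 19 shares, 9 did not overlap between the groups, where 49.5% of all tested genes, taken singly, did not overlap. Each of the 9 had an exact two-sided permutation p of 0.1, the smallest that 3 samples against 3 allow. After adjustment over the 19 shares this was 0.211. Shares of 1 step sum to 100%, so they are not independent. The levels of the shares depend on the length used: HK1 was at 79.2% of hexokinase and PDK3 at 69.6% of the PDK level with siNC when the length of 1 principal transcript was used, and by reads alone PFKFB2, at 44.6%, led PFKFB3, at 38.3%, with siNC too.

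**Figure D4:**
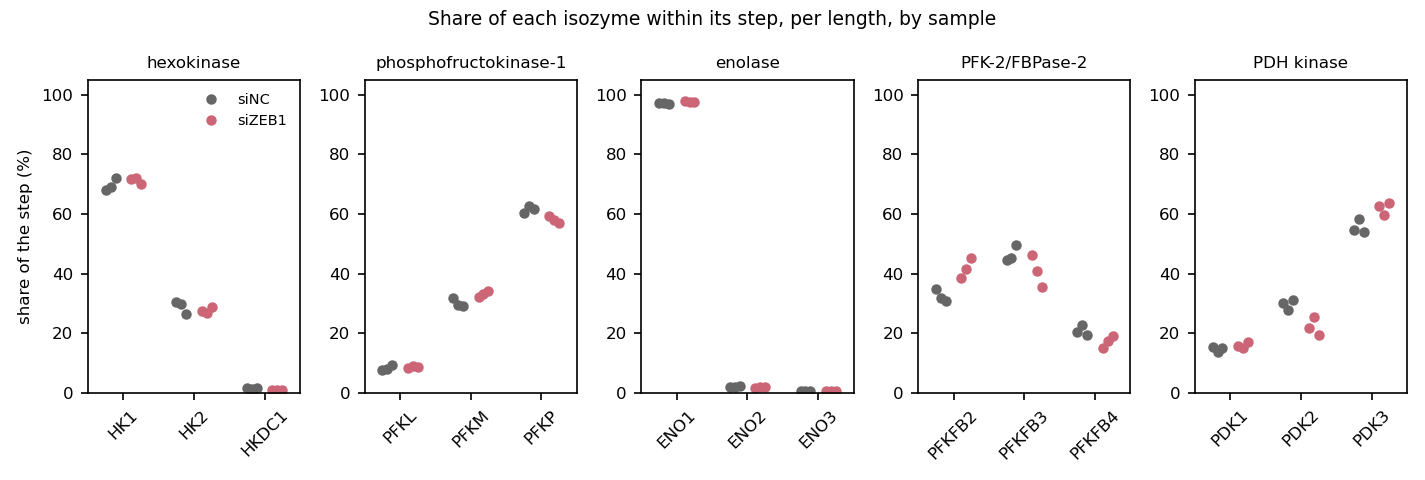
Share of each isozyme in the summed per-length level of its step, in percent, by sample, for 5 steps with several isozymes. Grey points are siNC and red points siZEB1 samples, and the clearest shifts are those of PFKFB2, by 9.31 points, and PDK2, by -7.50 points. The count of PDK2 is uncertain because SAMD14 overlaps it.

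Of 37 other genes of these and neighbouring pathways, 25 were tested, of which 7 were higher (28%, beside 19.0% of all tested genes) and 8 lower (32%, beside 21.2%), with a median log2 fold change of -0.04. The 3 largest rises with a mean of at least 1 CPM were in PGM2L1, which makes glucose-1,6-bisphosphate (0.66), BPGM, which makes 2,3-bisphosphoglycerate (0.37), and PRPS1, a ribose phosphate pyrophosphokinase (0.36). The 3 largest falls were in PDPR, the regulatory subunit of pyruvate dehydrogenase phosphatase (-0.82), PYGL, the liver glycogen phosphorylase (-0.57), and PRPS2, the sister of PRPS1 (-0.42). PRPS1 was at 191, 188 and 186 CPM with siNC and at 246, 247 and 232 CPM with siZEB1. PRPS2 was at 33.6, 35.9 and 31.6 CPM with siNC and at 26.2, 24.8 and 24.5 CPM with siZEB1, so the 2 sister genes moved in opposite directions, each without overlap and past the test (adjusted p = 6.60e-05 and 0.00044 by edgeR). PDPR has near-identical copies elsewhere in the genome, so its count is uncertain.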

How the data were processed

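RNA of 3 siNC and 3 siZEB1 samples was sequenced, and the authors deposited whole-number counts of reads per gene for each sample, without normalization. The submitters' processing notes name Trimmomatic, HISAT2, SAMtools, featureCounts and the build hg38, without versions. The annotation and the use of strand in counting are not given in the sources used here. All rows of the 6 files named a gene, and 31059 of 32029 identifiers matched GENCODE 29. The members, lists and motifs were chosen with earlier results of these data known.

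Genes were kept by edgeR's filterByExpr, normalized by TMM and compared between the groups with the two-sided quasi-likelihood F-test of edgeR. No covariate entered the model, and p-values were adjusted by Benjamini-Hochberg over 14996 genes. The biological coefficient of variation was 6.58%. Counts for siZEB1 against siNC were simulated on 14996 genes with 200 changed and the same dispersion for every gene. There the test recovered 74% of those changed by 0.5 (log2) and 89% of those changed by 1. Of its calls, 3.55% were of unchanged genes. In the data 2849 genes were called higher and 3186 lower, and changes below 0.5 were not simulated, so these rates need not hold for the results here. Replicates differed by 2.27 to 9.58 times sampling noise (chi-square over degrees of freedom), so none was a copy of another. Shares and totals used CPM per kilobase of all annotated exons and exact permutation tests. The pyruvate dehydrogenase subunits, which are not isozymes, were not summed.

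The genes named were every member, ZEB1, HIF1A and, of the other pathway genes, the 3 largest called rises and falls with a mean of at least 1 CPM. AC093512.2, AC010197.2, AC008012.1 and SAMD14 were named for their overlap with members, after the values were seen. The 12 other fits left out each of the 6 samples in turn, added the replicate number as a block, dropped the filter, required at least 10 counts in every sample, scaled by median-of-ratios or by library total alone, or used the DESeq2 Wald test. Shares were also taken with other lengths and by reads alone. Principal transcript lengths and counts without the 4 members whose principal transcripts are most overlapped were added after the data were seen. Smaller overlaps remain in other members, such as 28.9% of PDHA1, 25.4% of PGLS and 22.5% of GAPDH on the opposite strand. GPI shares 12.9% on the same strand. The effect of these overlaps on the counts was not tested. The software was R 4.3.3, edgeR 4.0.16, limma 3.58.1, DESeq2 1.42.0, Python 3.11.15, numpy 2.4.6, scipy 1.17.1, pandas 2.3.3 and matplotlib 3.10.9.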

Additional observations from a re-analysis of the deposited data

How the results depend on the processing

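Direction was kept by all 17 called members in the 12 other fits. With the fold change rule, 0 members were higher and 2 lower. The counts ranged from 3 to 5 higher and 9 to 14 lower members, and from 3 to 7 higher other pathway genes, with 1 sample left out. Without ALDOA, LDHB, TIGAR and PDK2, 5 members were higher and 10 lower. The median log2 fold change of all tested genes was -0.014 with library total alone and 0.0021 with median-of-ratios scaling.

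No pairing by replicate number was seen: deviations of same-numbered samples correlated at -0.107, -0.147 and -0.339, and no sample correlated best with its own number. These are deviations from the mean of only 3 samples per group and depend on one another, so they cannot exclude a pairing. With the replicate number as a block, 2 members were higher and 9 lower, and 4 other pathway genes were higher.

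Signs turned only among uncalled values near 0. With 1 sample left out, log2 fold changes ranged from -0.0074 to 0.068 for ENO1, -0.021 to 0.25 for ENO3, -0.023 to 0.039 for PDHA1, -0.020 to 0.19 for PGLS, -0.070 to 0.076 for RPE and -0.014 to 0.060 for the enolase total. PDHA1 was at -0.0049 with total library size only and at -0.0011 with no filter. Differences in share ranged from -0.0078 to 0.864 points for PFKL, -0.013 to 0.079 for ENO3, -0.033 to 0.0088 for LDHA and -0.0088 to 0.033 for LDHB. The PFKFB total was at 0.0084 by reads alone. Depth limits ALDOA, ALDOC, LDHB and HKDC1 most, each with at most 93 reads a sample.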
